A study of Bos taurus with 13 samples.

Results

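The prepubertal mammary gland was hybridised on 1 array against a reference cell line, and 7 other bovine tissues were each hybridised on 1 array against the same line. These 8 arrays are part of a set of 13 made on a bovine mammary cDNA microarray (BMAM). For each gene, the value on the mammary array was set against the mean of the values on the adipose, adrenal, ileum, liver, lymph, spleen and thymus arrays. The gland came from a Holstein heifer of 136 kg. The labels give no breed, weight or sex for the 7 other tissues and no age for any animal. The reference was RNA of the BovMac cell line, named as channel 1 on all 8 arrays, with the tissue as channel 2. Beside these, 2 arrays set lactating gland (channel 1) against prepubertal gland (channel 2) of a 136 kg heifer on the first and of a 227 kg heifer on the second. A further 2 arrays set the reference line against itself. The title and channel of the second lactating array say prepubertal although its keywords say post-pubertal, and the label of the first reference array spells the line BovMav.

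Before puberty the mammary gland is a small tree of ducts that grows into a pad of fat and connective tissue. The ducts have an inner layer of luminal epithelial cells and an outer layer of contractile myoepithelial cells. The secretory alveoli, and most synthesis of caseins, whey proteins and milk fat, come later, in pregnancy and lactation. All samples were whole tissue, so fewer cells of a type and less RNA per cell cannot be told apart.

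Each array held 3888 spots, which print 1296 cDNA clones 3 times each, and the deposited value of a spot is 1 log ratio of both channels. The base of the logarithm, the dye of each channel and the order of the ratio were not given in the sources used here, so differences are in log units and are described by the side of the ratio on which they lie. A positive value is not called higher expression. Spots listed at exactly 0 were treated as missing (124 on the mammary array), each array was centred on its median, and a gene's value is the mean over its spots, with the SD over those spots, which are technical repeats. Of 706 named genes, 702 had a mammary value and values in at least 6 of the 7 other tissues, with at least 2 spots on each array. The median SD over the spots of a clone or gene was 0.09 on the mammary array, and the mean rank correlation between repeated spots there was 0.66, against 0.53 to 0.85 on the other tissue arrays and 0.12 on the second reference array.

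A small set of genes stood apart in the gland, nearly all on the positive side. A gene was counted when its difference from the mean of the other tissues was at least 0.5 log unit and its mammary value lay outside the range of the other tissues on the same side. By this rule 29 of 702 genes (4.13%) stood apart, 24 of them on the positive side (3.42%) and 5 on the negative side (0.712%). PRC1, a microtubule bundler of dividing cells, led the positive side at 1.17, and TCAF1, a partner of TRP ion channels, led the negative side at -0.84. Of 388 unnamed features 15 stood apart (3.87%), 14 positive (3.61%) and 1 negative (0.258%), which makes 44 of 1090 genes and features together (4.04%). No test was possible, because each tissue had 1 array. Over all genes the difference had a median of 0.02, an SD of 0.23 and quartiles of -0.09 and 0.14.

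The count was close to that of one reference array and below that of the other. Set against the same 7 tissues by the same rule, the first reference array gave 33 of 700 genes (4.71%), 5 positive (0.714%) and 28 negative (4.0%). The second gave 88 of 681 (12.9%), 34 positive (4.99%) and 54 negative (7.93%). Each of the other tissue arrays was also set against the remaining 7 tissue arrays. Ileum gave 111 genes, adrenal 21, thymus 13, liver 11, adipose and spleen 6 each, and lymph 3. The mammary count was thus second to that of ileum among the 8 tissues, and its excess of positive over negative genes was the largest of the 8. The mammary share of genes past the rule was no larger than those of the reference arrays, and its positive share lay between theirs. The reference counts are not a measure of array noise alone. They also take in genes whose ratio to the reference was shifted in all 7 tissues. On the second reference array, repeated spots also correlated at only 0.12.

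**Figure D1:**
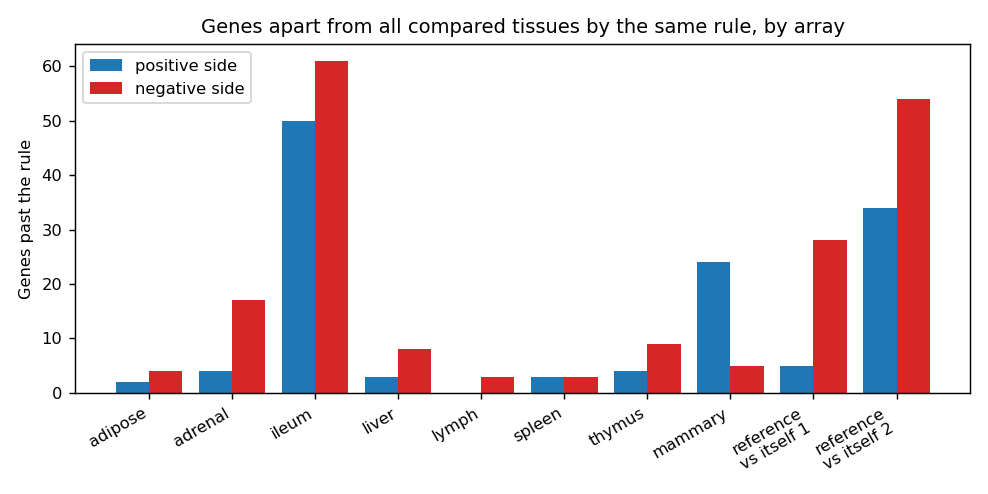
Genes past the rule on each array, by side of the ratio. Bars count named genes at least 0.5 log unit from the mean of the compared tissue arrays and outside their range; each tissue is compared with the 7 remaining tissues and each reference array with the 7 tissues other than mammary gland. Mammary gland has 24 positive and 5 negative genes, ileum 50 and 61, and the reference arrays 5 and 28, and 34 and 54.

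The printed copies of actin gave a second measure of how well a clone's difference repeats. ACTB, the gene of cytoplasmic beta-actin, was printed as 50 clones of 3 spots. Its clones differed from the mean of the 7 tissues by -0.28 to 0.83, with a median of -0.09 and an SD of 0.19. Past the rule were 2 of the 50 (4%), at 0.56 and 0.83. These 2 and the next highest clone, at 0.28, stood in adjacent table rows. The remaining clones lay between -0.28 and 0.09. On the other tissue arrays 0 to 7 ACTB clones were past it, and on the reference arrays 8 of 50 and 16 of 42. The reference counts carry the limits given above, since they too were set against the 7 tissues. All 29 genes past the rule were printed as 3 spots, as were 625 of all 702 genes, and none of the 77 genes with more spots was among them.

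**Figure D2:**
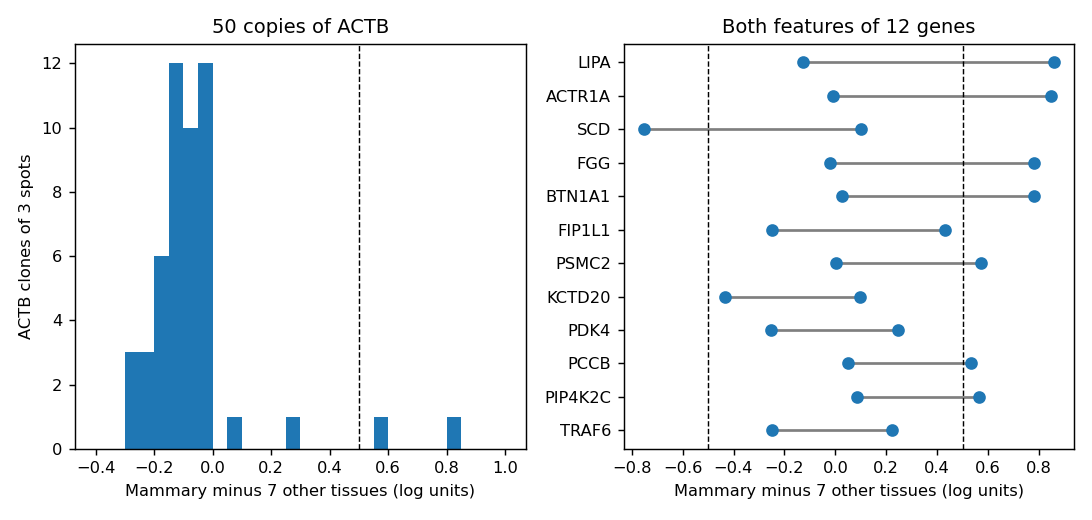
Repeated clones of the same gene on the mammary array minus the mean of the 7 other tissues, in log units. Left, the number of ACTB clones by difference, with 48 of 50 clones under 0.5; right, both clones or features of 12 genes joined by a line, with dashed lines at 0.5 log unit on each side. One LIPA feature lay at 0.86 and the other at -0.13.

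The largest positive difference was that of PRC1. The 3 mammary spots of PRC1, which bundles microtubules at the central spindle during cytokinesis, were 0.12, 1.25 and 1.66 (mean 1.01 ± 0.80, SD over spots). In the other tissues PRC1 ran from -0.73 in ileum through a median of -0.11 to 0.17 in lymph. All other tissues but ileum lay close to 0, the first mammary spot lay within their range, and the other mammary spots lay far above it. On the first reference array PRC1 was at -0.76, on the opposite side. Of the genes past the rule, 2 of 29 were at least 0.5 log unit from 0 on the first reference array and 5 of 26 with a value on the second, beside 4.13% and 12.9% of all genes. RMDN1, a member of a family of microtubule regulators found at mitochondria, had mammary spots of 0.44, 1.38 and 1.11 against -0.48 (ileum), 0.15 and 0.18 (thymus) as the lowest, median and highest of the others. All its mammary spots were above all other tissues, and the difference was 0.99. The second reference array had RMDN1 at -1.45.

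Among genes with close mammary spots, TMEM150A, a plasma membrane protein, had the largest value, with spots of 0.94, 0.89 and 1.28 (1.04 ± 0.21). Its other tissues lay between -0.05 in adipose and 0.22 in thymus, with a median of 0.13, so no spot came near them, and the difference was 0.93. CLDND1, a membrane protein with a claudin domain, had spots of 0.83, 0.95 and 1.00 against -0.06 (adrenal) to 0.25 (thymus), median 0.13, a difference of 0.82. SLC22A4, a transporter of ergothioneine and organic cations, had spots of 0.66, 1.15 and 1.19 against -0.03 (adrenal) to 0.26 (thymus), median -0.01. All spots of CLDND1 and SLC22A4 also lay above the highest other tissue, and the SLC22A4 difference was 0.92. These spots are technical repeats on 1 array, and the rule picked the genes by the mean of the same spots.

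Signalling genes were also among the leaders. MAPKAPK5, a kinase that acts below MAP kinases, had spots of 0.82, 0.76 and 1.19, above the highest other tissue, liver at 0.21 (median 0.02, lowest -0.10 in adrenal), and differed by 0.89. TEAD3, a DNA-binding partner of the Hippo pathway co-activator YAP, had spots of 0.19, 1.32 and 1.36, and the first of these lay below lymph, the highest other tissue at 0.41. GNA14, a G-protein alpha subunit, was at 0.61 ± 0.11 and differed by 0.65. The small GTPase GEM was at 0.45 ± 0.11 and differed by 0.57. For GNA14 and GEM all spots lay above the highest other tissue, which was adipose at 0.08 and adrenal at 0.03. With runs of 81 table rows each centred, GNA14 differed by 0.40 and GEM by 0.49, and neither was called.

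Of the 10 listed lipid genes, 7 lay above 0, and the 2 past the rule were IDI1 and BDH2, enzymes of isoprenoids and of ketone bodies. Over all genes 3.42% were past the rule on the positive side, and with so few members nothing is drawn from this count. IDI1, the isomerase that feeds isoprenoid and cholesterol synthesis, had spots of 1.14, 0.88 and 0.89 (0.97 ± 0.15). Its other tissues ran from -0.20 in ileum through a median of 0.05 to 0.40 in thymus, below all its mammary spots, and the difference was 0.89. BDH2, a cytosolic hydroxybutyrate dehydrogenase, had spots of 0.72, 0.70 and 0.96 against 0.05 (adipose) to 0.30 (thymus), median 0.11, and differed by 0.66.

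Of the genes that act in the nucleus, SIRT7, a nucleolar deacetylase, had spots of 0.94, 0.86 and 0.72 against -0.19 (adipose) to 0.31 (ileum), median 0.06, a difference of 0.76. The second reference array had SIRT7 at -0.59. RBM45, an RNA-binding protein, differed by 0.70, with spots of 0.44, 0.89 and 0.93. SNAPC3, a subunit of the complex that drives small nuclear RNA genes, differed by 0.57, and GLE1, a factor of mRNA export, by 0.52. The GLE1 call was lost without centring, with the median of the other tissues, without adrenal and without ileum.

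Genes of membrane traffic and contact included ESYT1, which tethers the endoplasmic reticulum to the plasma membrane, with mammary spots of -0.11, 1.39 and 1.23. Its other tissues ran from -0.20 in thymus through 0.06 to 0.25 in spleen, so the first mammary spot lay inside their range and the remaining spots far above. STX12, an endosomal SNARE, had spots of 0.01, 0.90 and 1.22, with the first again inside the range of the others, and differed by 0.67. AP3M1, a subunit of an adaptor that sorts cargo to lysosomes, had the closest spots of all the genes past the rule, at 0.69, 0.74 and 0.66, and differed by 0.57. Thymus, at 0.41, was its highest other tissue. With runs of 81 table rows centred AP3M1 differed by 0.32 and was not called.

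The epithelial gene on the positive side was PLET1, a surface protein known from placenta and other epithelia. Its mammary spots were 0.18, 0.83 and 0.69 (0.57 ± 0.34) against -0.25 (thymus) to 0.23 (adrenal), median -0.01. The first spot lay within the other tissues, the difference was 0.55, and the first reference array had PLET1 at -0.59. With runs of 81 table rows centred PLET1 differed by 0.46 and its tissue call was lost. PERP, a desmosomal protein that is also a p53 target, rested on 2 spots of 1.62 and -0.14 on opposite sides of 0, so its difference of 1.05 was smaller than its SD over spots of 1.24.

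The remaining positive genes differed by 0.59 to 0.75. FAM114A2 differed by 0.75, TTC1, a tetratricopeptide protein, by 0.74, C6H4orf19 by 0.64 and LOC100124497 by 0.59. C6H4orf19 was the exception in kind. Its mammary value was 0.13 ± 0.08, only 0.01 above liver, and the difference came from ileum at -2.66. Its call was lost without ileum, without centring and with the median of the other tissues. Over all 24 positive genes, thymus was the highest other tissue in 12 and lymph in 5.

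**Figure D3:**
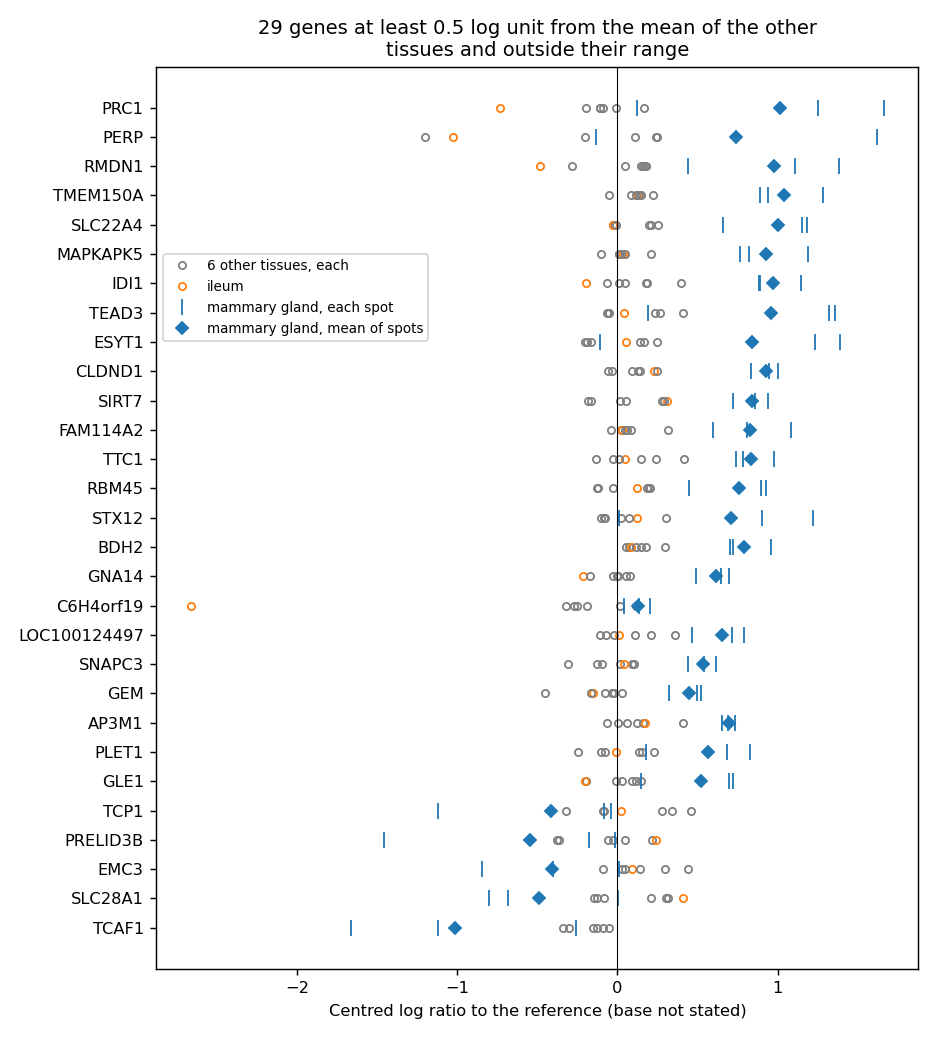
The 29 genes past the rule, by centred log ratio to the reference (base not stated). Ticks are single mammary spots, filled diamonds their mean, open circles the other tissues with ileum in orange; genes are ordered by difference. TMEM150A, CLDND1 and AP3M1 have all mammary ticks to the right of every circle, while PRC1, TEAD3, ESYT1 and STX12 each have 1 tick among the circles.

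The spots of these genes spread more than those of other genes. The median SD over mammary spots was 0.27 for the 29 genes and 0.10 for all genes measured. The difference exceeded the SD over spots in 26 of the 29, which left out PERP, PRELID3B and TCP1. Of the 28 genes with 3 values, 25 had all spots on the called side of 0. Both counts use the same spots as the rule, which favours such values, so they do not measure how reliable the calls are.

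The 5 genes on the negative side were less even. TCAF1 had mammary spots of -0.26, -1.12 and -1.66 (-1.01 ± 0.71) against -0.34 (liver) to -0.05 (adrenal), median -0.14, in 6 tissues, since ileum had no value. The first spot lay within the other tissues and the remaining spots far below them. SLC28A1, a concentrative nucleoside transporter, had spots of 0.01, -0.68 and -0.80 against -0.14 (adrenal) to 0.41 (ileum), and differed by -0.62. EMC3, a subunit of the endoplasmic reticulum membrane complex that inserts membrane proteins, had spots of 0.01, -0.84 and -0.40, and differed by -0.55. Its call was lost without adipose. For SLC28A1 and EMC3 the first spot lay among the other tissues.

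PRELID3B, a mitochondrial lipid transfer protein, and TCP1, a subunit of the CCT chaperonin, each had 1 low spot, at -1.46 and -1.12, beside spots between -0.18 and -0.01. Both differed by -0.50, less than their SDs over spots of 0.79 and 0.61. Without thymus or without adrenal neither was called. The PRELID3B call was also lost without ileum and without liver, and the TCP1 call without adipose.

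Further genes below the other tissues had smaller differences, and were named only if the difference exceeded the SD over spots. WTAP, a subunit of the RNA methyltransferase complex for m6A, lay at -0.25 ± 0.05, below the lowest other tissue at -0.01, and differed by -0.40. NRP1, a co-receptor for VEGF and semaphorins, differed by -0.28 with an SD over spots of 0.02. EMC2, a partner of EMC3 in the same complex, differed by -0.39 ± 0.37 (SD over mammary spots), and TAF1D, a subunit of the RNA polymerase I initiation factor, by -0.37. ZC3HC1, which binds nuclear pores, differed by -0.47 with an SD over spots of 0.34. LTA4H, which makes leukotriene B, differed by -0.34, ALOX15B, a lipoxygenase, by -0.30, and NFIB, a transcription factor, by -0.25. Of all genes, 33 (4.7%) lay below the range of the other tissues by any amount and 117 (16.7%) above it.

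At the limit of the rule, TCP1 and PRELID3B (-0.50), GLE1 (0.52) and EMC3 (-0.55) lay just inside. AKIRIN2 (0.49), LGALS9 (0.49), CASKIN2 (0.48), RABL2B (0.47) and ZC3HC1 (-0.47) lay just outside. A further 5 genes passed 0.5 but lay inside the range of the other tissues. These were ASF1A (0.59), MATN2 (0.55), LOC100299281 (-0.58), ARPC5 (-0.60) and PARVA (-0.82), named after their values were seen. At 1 log unit 2 genes (0.285%) remained, PRC1 and PERP.

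Milk proteins differed from the other tissues by less than 0.5 log unit. Of 9 measured genes 0 were past the rule, where the share over all genes was 4.13%, 6 lay above 0, and the median difference was 0.14, beside 0.02 for all genes. BTN1A1, LALBA, MUC1 and PAEP, 4 of the 9, lay above every other tissue by some amount, as did 16.7% of all genes, and CSN1S1 lay level with lymph, its lowest other tissue, at -0.09. BTN1A1, butyrophilin of the milk fat globule, differed by 0.40 with an SD of 0.58 over 6 spots, since one of its features lay at 0.78 and the other at 0.03. CSN2, beta-casein, differed by 0.34 with an SD of 0.49 over 9 spots, and ileum, at 0.49, was above its mammary value of 0.42. LALBA, the lactose synthase cofactor, differed by 0.19, and PAEP, beta-lactoglobulin, by 0.15. CSN1S1, alpha-S1-casein, had the most spots of the list, 18, and differed by -0.10, and CSN3, CSN1S2 and MUC1 differed by -0.06, 0.03 and 0.14.

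Of 10 measured enzymes and carriers of milk fat and lipid metabolism, 2 were past the rule on the positive side (IDI1 and BDH2), and the list's median was 0.10. The share over all genes was 3.42% on that side, and 2 of 10 says little of the list. SCD, the desaturase that makes oleic acid, differed by -0.32 with an SD of 0.67 over 6 spots, because its features lay at -0.75 and 0.10. ACSS2, which activates acetate for fat synthesis in ruminants, differed by -0.19, GPAM, the first acyltransferase of triglyceride synthesis, by -0.17, and the fatty acid carrier CD36 by 0.17. ACLY, the citrate lyase, differed by 0.03.

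Most markers of the gland's cell types differed by less than 0.5 log unit. Of 7 epithelial genes, PLET1 alone was past the rule, 5 lay below 0, and the median was -0.12. EPCAM, the epithelial adhesion molecule, was at 0.05 ± 0.16 in the gland against a median of 0.12 in the other tissues and 1.94 in ileum. ST14, an epithelial serine protease, was at -0.03 against 1.00 in ileum. KRT7, a luminal keratin, differed by -0.06, and ELF5, the transcription factor of alveolar fate, by 0.18. The smooth muscle and myoepithelial genes MYH11, ACTG2 and TPM1 differed by -0.15, -0.15 and 0.07. Other keratins, CDH1, ACTA2, TAGLN, CNN1, COL1A1, ADIPOQ and PLIN1 were not analysed here. Of the epithelial genes, ST14 also lay outside the other tissues, below them, and at 1 of 7 past the rule the count says little of the list.

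Stroma and matrix genes lay mostly on the negative side, with 8 of 12 below 0, a median of -0.06 and 0 past the rule. Over all genes 4.13% were past it. COL6A1, a chain of collagen VI, differed by -0.27 with an SD over spots of 0.36, VCAN, versican, by -0.23, TNC, tenascin C, by -0.18, and FBLN5, an elastic fibre protein, by 0.19. POSTN, periostin, was at -0.25 in the gland and -1.52 in ileum, and COL5A2 at -0.15 and -0.68. The only adipocyte gene measured, ADIRF, differed by -0.08. The endothelial genes CD300LG, EMCN and CAV1 differed by -0.11, -0.03 and 0.04.

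Several immune genes had their highest value in ileum. Of 5 leukocyte genes 0 were past the rule, where the share over all genes was 4.13%, and the median was -0.10. PTPRC, the pan-leukocyte phosphatase CD45, was at -0.16 ± 0.02 in the gland, -0.02 at the median of the other tissues and 0.50 in ileum. BOLA-DRB3, a class II chain of antigen presentation, was at 0.42 in the gland against a median of 0.28 elsewhere, but ileum, at 3.17, brought the difference to -0.40. CD74, the class II invariant chain, followed at 0.37 against 0.15 at the median and 2.41 in ileum. The median over the 4 presentation genes was -0.12, and 0.09 without ileum. Of 5 genes of innate defence and plasma proteins 0 were past the rule. C3, the central complement protein, differed by -0.34, with liver at -1.10, and FGG, a fibrinogen chain, by 0.38, with its features at -0.02 and 0.78.

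Apart from PRC1, genes of proliferation differed little. Of 8 measured, 1 was past the rule, where the share over all genes was 4.13%, 6 lay above 0, and the median was 0.10. BUB3, of the spindle checkpoint, was at 0.07 ± 0.07 against -0.58 (spleen), -0.35 and -0.01 (liver) as the lowest, median and highest of the others, and differed by 0.39. BIRC5, survivin, was at 0.24 ± 0.01 against at most 0.12, in adipose, and differed by 0.22. These values lay outside the other tissues but under 0.5. The DNA replication genes MCM3, MCM6, MCM7 and PCNA differed by 0.05, 0.10, 0.09 and 0.00, and the kinesin KIF22 by -0.16. In growth factor and hormone signalling, 1 of 7 was past the rule, TEAD3, and the median was -0.07. With 1 gene past the rule in each of these lists, nothing is drawn from the counts. FGF2, a basic fibroblast growth factor, differed by 0.24, RARA, a retinoic acid receptor, by -0.22, GHR, the growth hormone receptor, by -0.07, and TGFBR2, a TGF-beta receptor, by -0.11.

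Lists of general cell function are read against the 4.13% of all genes past the rule, and with so few members past it nothing is drawn from their counts. Kinase and small G-protein signalling had 3 of 21 (MAPKAPK5, GNA14 and GEM), with 9 above 0 and a median of 0.00. Endoplasmic reticulum and Golgi traffic had 3 of 29 (STX12 and AP3M1 positive, EMC3 negative), with a median of 0.03. Chromatin and transcription had 2 of 16 (SIRT7 and SNAPC3), with a median of -0.02. Solute carriers and transporters had 2 of 17 on opposite sides (SLC22A4 and SLC28A1), with a median of 0.04, and SLC37A4, the glucose-6-phosphate transporter, followed at 0.37 ± 0.01. RNA processing had 1 of 31 (RBM45), with NONO, a paraspeckle protein, next at 0.44. Mitochondria had 1 of 15 (RMDN1), and chaperones 1 of 8 (TCP1), whose partner subunits CCT4 and CCT5 differed by 0.00 and -0.16.

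The lists of ribosome and translation (16 genes), ubiquitin and proteasome (19), actin and cytoskeleton (21), lysosome and sphingolipids (10) and sugar and glycosylation (6) had 0 genes past the rule. Their medians were 0.08, 0.02, 0.04, 0.09 and -0.08. In the first, 13 of 16 lay above 0, from -0.23 for RPL9, a ribosomal protein, to 0.17 for EIF5A, a translation factor. In the others, FBXO28, an F-box protein, differed by 0.46, CUL1, the cullin scaffold, by 0.41, ARPC5, of the actin-branching complex, by -0.60 and LIPA, the lysosomal lipase, by 0.37. In all, 13 of the 24 lists had 0 genes past the rule. The sign of the median changed under at least 1 of 5 other scalings or averages in 10 lists, whose medians lay within 0.12 of 0.

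**Figure D4:**
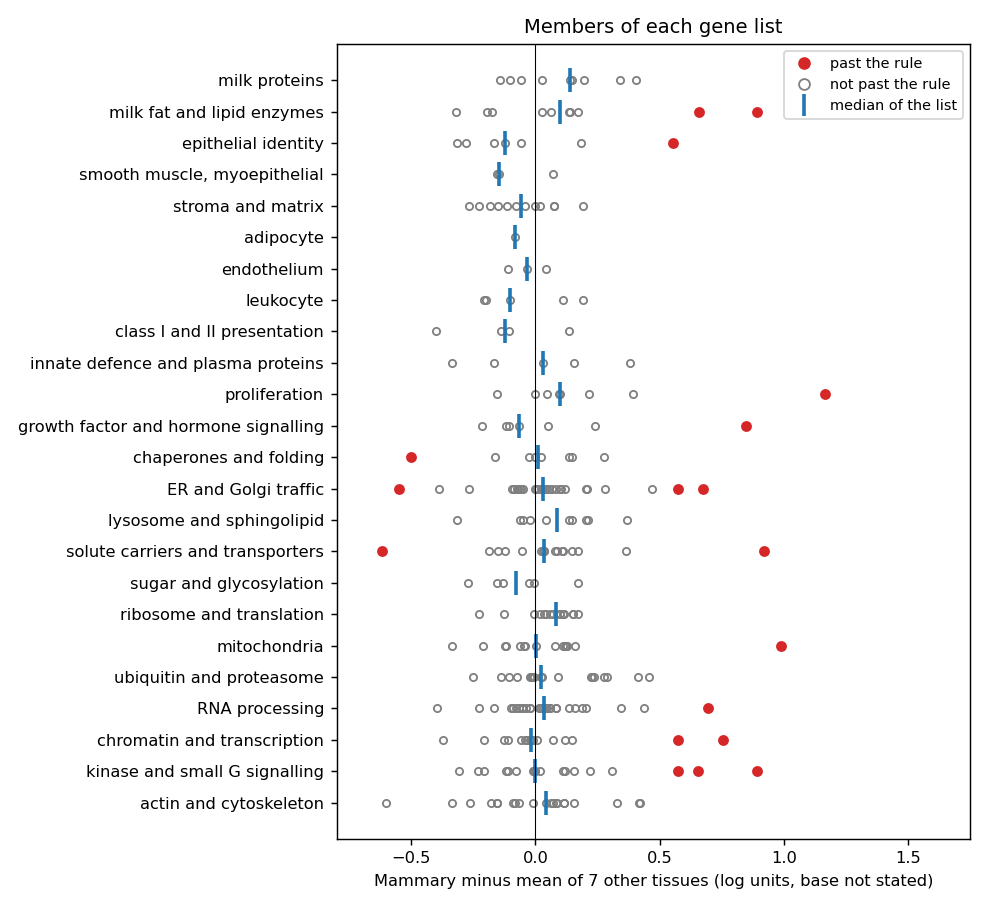
Difference of the mammary array from the mean of the 7 other tissues, in log units, for each measured member of 24 gene lists. Red points are genes past the rule, open points the others, and vertical bars list medians; some genes stand in more than 1 list. All medians lie between -0.15 and 0.14, and milk proteins, stroma, leukocyte and presentation lists hold no red point.

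The tissue difference was then set beside the lactating arrays, where genes past the tissue rule were called about as often as all genes. On the 2 lactating arrays, limma with Benjamini-Hochberg adjustment over genes and unnamed features called 87 of 697 genes (12.5%) at an adjusted p under 0.05, 69 on the positive side (9.9%) and 18 on the negative side (2.58%). The ratio's direction is unstated here too; CSN1S1 lay on the positive side, at 1.61 and 2.56. Of the 29 genes past the tissue rule, 28 had values, and limma called 3 of them, PLET1, ESYT1 and TCAF1, a share near that of all genes. The labels name a 136 kg heifer on the mammary tissue array and on the first lactating array and do not say whether it is the same animal. Nothing says how the 2 lactating arrays relate beyond the heifers' weights. The p-values rest on the spread between these 2 arrays, which limma moderated with the spread over all genes and features. They cannot be read as measuring the spread between animals.

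PLET1 had the largest lactating ratios among the genes past the tissue rule, 2.93 and 3.65 (3.29 ± 0.51, SD, n = 2; limma adjusted p = 4.37e-07). In every alternative fit limma's adjusted p for PLET1 stayed under 0.05, from 4.16e-13 to 0.0311. ESYT1 was at 1.74 and 1.19 (1.47 ± 0.39; limma adjusted p = 0.000122), with SDs over spots of 0.91 and 0.88 on these arrays. Its call was lost with exact 0 kept (limma adjusted p = 0.0518), with the arrays scaled to the same spread (0.0886), without the first array (0.0781), without the second (0.0708) and in the contrast with the reference arrays (0.0979).

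TCAF1 lay on opposite sides in the separate comparisons, at -1.01 on the mammary tissue array and at 0.53 on both lactating arrays (limma adjusted p = 0.0438). With the median of its spots its lactating mean was 0.05 (limma adjusted p = 0.889). The call was also lost without centring (limma adjusted p = 0.0667), with exact 0 kept (0.131), with no minimum of spots (0.0553), with the same spread (0.102) and with runs of table rows centred (0.151). TCAF1 had no result in the fits that used the reference arrays, which include the contrast and the fits that left out a lactating array.

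The other genes past the tissue rule had smaller lactating ratios that limma did not call. PRC1 was at 0.16 and 1.03 (limma adjusted p = 0.0764), RMDN1 at 0.26 and 0.71 (0.0864), SLC22A4 at 0.36 and 0.50 (0.0998) and FAM114A2 at 0.40 and 0.64 (0.0542). TMEM150A was at 0.18 and 0.13, MAPKAPK5 at 0.18 and 0.38, IDI1 at 0.07 and 0.28, TEAD3 at 0.20 and 0.65, CLDND1 at 0.18 and 0.40 and SIRT7 at 0.11 and 0.42. SNAPC3 and GEM lay below 0 on both arrays, at -0.20 and -0.28, and at -0.10 and -0.07. Over the 23 positive genes with values, the lowest, median and highest were -0.20, 0.18 and 2.93 on the first array and -0.28, 0.41 and 3.65 on the second, with medians over all genes of 0.02 on each. On the negative side, SLC28A1 was at -0.27 and 1.42, PRELID3B at 0.03 and -1.74, and EMC3 at -0.05 and 0.03.

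Of the 87 genes called between lactating and prepubertal gland, 3 were past the tissue rule, a share near the 4.13% of all genes. The 87 called genes differed from the other tissues by -0.84 to 0.83, with a median absolute difference of 0.15, beside 0.11 for all genes. CSN1S1 (limma adjusted p = 2.72e-05) differed from the other tissues by -0.10. LASP1, an actin-binding protein, was at 3.15 and 2.89 on the lactating arrays and differed by -0.27. CD47, an inhibitory signal to phagocytes, was at 2.47 and 3.64 and differed by 0.19 with a mammary SD of 0.40. SPTLC1, of sphingolipid synthesis, was at 2.11 and 2.26 and differed by 0.13. EMC2, at 2.12 and 2.17, lay below every other tissue in the gland.

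Some called genes lay just under the tissue rule. LGALS9, a galectin, was at 1.60 and 1.98 on the lactating arrays and differed from the tissues by 0.49, and CASKIN2, a scaffold protein, was at 0.71 and 0.98 and differed by 0.48. BUB3 lay on the negative side of the lactating ratio, at -0.73 and -1.59 (limma adjusted p = 0.00227), and on the positive side of the tissue difference, at 0.39. Over all genes, limma called 9.9% on the positive side. Among the lists, it called 3 of 9 milk protein genes (CSN1S1, CSN2 and PAEP) and 4 of 10 lipid genes on that side (ACSS2, GPAM, SPTLC1 and CD36). None of these 7 genes was past the tissue rule, but only 4.13% of all genes were, so nothing is drawn from this count.

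**Figure D5:**
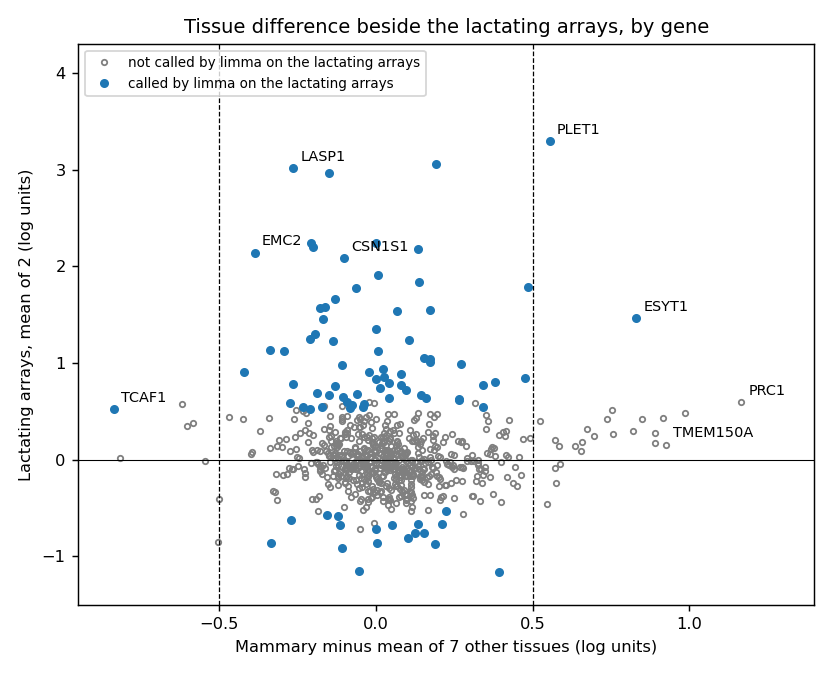
Each gene's difference of the mammary array from the mean of the 7 other tissues (horizontal, log units) beside its mean on the 2 lactating against prepubertal arrays (vertical, log units). Filled points were called by limma at an adjusted p under 0.05 and dashed lines mark 0.5 on each side. PLET1 and ESYT1 are the only filled points at the right of the right line, and TCAF1 the only one at the left of the left line.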

How the data were processed

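The authors deposited 1 log ratio per spot of 13 2-channel cDNA arrays; per the labels, channels are those named above. No source used here gives the log base, dyes, background correction or normalization, so the unit was recorded as other. No spot intensity or flag was used, and precision is limited by how few arrays there are. Spots were named through GEO's platform annotation (2538 spots with 1 gene, 30 with several, 1320 with none). Of the symbols, 703 were found in the RefSeq ARS-UCD2.0 table. Exact 0 was missing, arrays were median-centred, and at least 2 spots were required.

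The lactating arrays were tested with limma 3.58.1 (lmFit, eBayes, mean of 2 arrays against 0, two-sided) in R 4.3.3. The scripts were tested on simulated data. Named genes are list examples with the largest differences, the 15 largest per side outside the range with a difference over the SD, genes called in both comparisons, and genes within 0.05 of the limit. EMCN, KATNA1 and MYLIP were kept out of lists that their names matched by prefix alone. The comparison and gene lists were chosen with earlier results of these data known. The alternatives are in the closing section.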

Additional observations from a re-analysis of the deposited data

How the results depend on the processing

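Across the alternatives run for the tissue count (centring, scale, treatment of 0, spots, features, rows of the table, size, range and SD rules, and leaving out each of the 7 tissues), the main count was 29 genes, 24 positive and 5 negative. It moved by over 1.5 times at 1 log unit (2 genes, 2 positive and 0 negative). The negative count alone also moved without the range rule (8) and with differences larger than the SD over spots (3). Leaving out 1 tissue at a time gave 27 to 32 genes, 23 to 28 positive and 3 to 6 negative, with 3 without adipose. Of the 29 genes, 27 were also called without centring and 24 with runs of 81 rows centred, an alternative chosen after seeing the data. Values of 41 named genes over 19 settings kept their sign in every case, and 26 of the values moved by more than the SD over spots. The size, range and SD rules change only the call, so no sign could change there. The treatment of 0, the minimum of spots and the averaging of features also left the value of many of these genes as it was. The limma count on the lactating arrays, 87 genes with 69 positive and 18 negative, was more fragile. It was 19 (19 positive, 0 negative) with exact 0 kept, 30 (29 and 1) with arrays scaled to the same spread, 32 (31 and 1) with runs of rows centred, 35 (34 and 1) with the spread shared with the reference arrays and 12 (12 and 0) as a contrast with those arrays. Without centring 60 were negative and 62 positive, so that 50.8% of calls were positive in place of 79.3%, and with the median of spots 9 were negative. Leaving out 1 lactating array, with the spread then taken from the reference arrays and the lone array assumed to vary like them, left 11 genes without the first and 4 without the second, all positive, with 0 negative. Where limma called 0 negative genes, the counts at an unadjusted p under 0.05 were 43 with exact 0 kept, 24 in the contrast, 44 without the first array and 21 without the second. Genes called in both comparisons numbered 3, and 1 with exact 0 kept, 1 in the contrast, 0 at 1 log unit and 1 to 4 with 1 array left out. The cause of these shifts was not tested. No paired analysis was possible because each tissue has 1 array and the labels number no array other than those of the reference against itself. With 1 array a tissue, the SD over spots measures printing and hybridisation only.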

Other observations

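Genes printed as more than 1 feature did not always repeat. Of 66 genes with 2 measured features, 9 had one feature at least 0.5 log unit from 0 and the other within 0.25 of 0. In 8 of them the displaced feature lay on the positive side. These were ACTR1A (0.85 and -0.01), a dynactin subunit, BTN1A1 (0.78 and 0.03), FGG (0.78 and -0.02), HNRNPM (0.55 and 0.14), LIPA (0.86 and -0.13), PCCB (0.53 and 0.05), PIP4K2C (0.57 and 0.09) and PSMC2 (0.57 and 0.00). In SCD it lay on the negative side (-0.75 and 0.10).

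Of 28 genes past the rule with 3 mammary values, the first printed spot was the least extreme in 16, the second in 7 and the third in 5. Over 623 genes with 3 values the first was the least extreme in 249 (40.0%). The 24 positive genes fell in 16 of 48 runs of 81 table rows, with at most 3 in a run.

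The unnamed feature on the negative side differed by -1.33 with an SD over spots of 0.08, larger in size than any named gene on that side. The largest positive one differed by 1.56 with an SD of 1.53. One differed by 0.93 with an SD of 0.14 and lay at -0.21 and -0.61 on the lactating arrays.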
